A study of Homo sapiens with 2 samples.

Results

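The exon junction complex and its partners were followed here as 10 genes in Huh7, an established human hepatocellular carcinoma cell line: EIF4A3, MAGOH, MAGOHB, RBM8A and CASC3 for the core, and RNPS1, SAP18, ACIN1, PNN and ALYREF for the periphery. They were chosen by name as known subunits and partners, with earlier results of these data known. They make up 10 of the 19927 gene rows of the count table. All 10 passed a filter of 1 CPM (counts scaled to the library total) in at least 1 library, as did 12524 genes in all. Polyadenylated RNA was sequenced from 1 culture with a control hairpin (shControl, genotype label WT) and 1 culture with a short hairpin RNA against PPIL1 (shPPIL1, hairpin 1 by its title). Both cultures were grown alike, and no untransduced cells and no other hairpin against PPIL1 were analysed here. Each group is 1 library, so no spread between cultures could be estimated, no test was possible and no difference below has a replicate check.

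The exon junction complex is laid down on messenger RNA during splicing, a short distance upstream of each exon junction, and stays on the RNA through export until translation removes it. EIF4A3, a DEAD-box RNA helicase, clamps the RNA. The MAGOH and RBM8A heterodimer locks that clamp, and CASC3 binds the closed helicase. RNPS1 and SAP18 join ACIN1 in the trimer called ASAP, or PNN in the trimer called PSAP, and both trimers dock on the complex and act in splicing control. ALYREF, an adaptor of the TREX complex, hands spliced messenger RNA to the export receptor. PPIL1, the gene targeted by the hairpin, encodes a cyclophilin-type prolyl isomerase that sits in the activated spliceosome.

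MAGOH and MAGOHB are shown first by sequence, because their rows can be read apart only where their messages differ. In GENCODE 29 (GRCh38), MAGOH lies on the minus strand of chromosome 1 from 53226892 to 53238610 and has 5 exons, and MAGOHB lies on the minus strand of chromosome 12 from 10604190 to 10613623 and also has 5 exons. The lines below give 150 coding bases of each, from base 4 of the MAGOH coding sequence and base 10 of that of MAGOHB, with capitals at the 18 bases that differ.
MAGOH: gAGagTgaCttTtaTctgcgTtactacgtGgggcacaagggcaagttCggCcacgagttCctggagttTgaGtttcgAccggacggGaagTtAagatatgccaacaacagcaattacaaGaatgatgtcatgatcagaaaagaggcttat
MAGOHB: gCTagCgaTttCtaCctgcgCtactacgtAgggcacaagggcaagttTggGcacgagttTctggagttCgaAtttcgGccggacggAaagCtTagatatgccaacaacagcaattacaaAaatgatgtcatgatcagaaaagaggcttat

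Over the 146 codons that align without a gap, stop codon included, the MAGOH and MAGOHB coding sequences differed at 59 of 438 bases. The changes fell in 54 codons, of which 53 encode the same residue in both genes and 1 does not. The longest stretch with no difference was 38 bases. No window of 100 bases, taken every 10 bases along the MAGOH or MAGOHB transcript, was found in a transcript of any other gene, which bears on how far 2 such similar rows can be told apart.

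EIF4A3 was compared in the same way with its paralogs EIF4A1 and EIF4A2, the helicases of translation initiation. The 72 coding bases around the codons for the DEAD motif are given for each gene, with capitals where a paralog differs from EIF4A3. EIF4A3 lies on the minus strand of chromosome 17 from 80135214 to 80147183, EIF4A1 on the plus strand of chromosome 17 from 7572706 to 7579005, and EIF4A2 on the plus strand of chromosome 3 from 186783205 to 186789900.
EIF4A3: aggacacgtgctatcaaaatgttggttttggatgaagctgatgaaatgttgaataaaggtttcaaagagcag
EIF4A1: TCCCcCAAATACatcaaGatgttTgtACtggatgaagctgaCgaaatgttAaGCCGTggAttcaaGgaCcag
EIF4A2: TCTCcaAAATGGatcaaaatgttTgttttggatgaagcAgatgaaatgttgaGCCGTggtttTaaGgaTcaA

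In that stretch EIF4A1 differed from EIF4A3 at 25 bases and EIF4A2 at 21. Over the whole coding sequence, 63.9% of aligned bases were identical between EIF4A3 and EIF4A1 and 65.0% between EIF4A3 and EIF4A2. Of the 164 windows of EIF4A3, 0 were found in another gene's transcripts. Among the other members, RNPS1 shared 15 of its 220 windows with the pseudogene RNPS1P1, and RBM8A shared 5 of 487 with the related gene model RBM8B. CASC3, ACIN1, SAP18, PNN and ALYREF shared 0. Whether reads were counted by strand is not given in the sources used here, and ACIN1 overlaps exons of the opposite-strand gene C14orf119 over 640 bases, ALYREF those of ANAPC11 over 62 bases, and RBM8A those of GNRHR2 over 858 bases. PNN and RNPS1 overlap non-coding opposite-strand models over 130 and 111 bases.

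The libraries held 41015345 counted reads (shControl) and 41165401 (shPPIL1). The targeted gene served as a check of the labels: PPIL1 had 1505 reads in shControl and 104 in shPPIL1, or 6.79% of the control level (95% counting interval 5.52 to 8.29%). The 8 hepatocyte markers, ALB and APOA1 among them, summed to 6331 FPKM in shControl and 6698 in shPPIL1, where FPKM is the fragment count scaled to gene length and library total. Markers of other cell types summed to 15.7 and 16.05 FPKM for fibroblasts, 1.58 and 1.36 for endothelium, and 0.0199 and 0.0436 for keratinocytes, with COL1A2, KDR, KRT5 and KRT14 at 0 reads in both libraries. Of the fibroblast markers, COL3A1 had 16 reads in shControl and 48 in shPPIL1, 2.95-fold higher (1.65 to 5.57). The 6 leukocyte markers summed to 245 and 201 FPKM, mostly through LYZ (13650 and 11091 reads), while PTPRC had 4 and 10 reads. The part of these differences in the results was not tested.

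The exon junction complex genes were nearly level between the libraries. None of the 10 was 1.2-fold lower or higher. Over all kept genes, 9.41% were at least 1.2-fold lower and 8.40% at least 1.2-fold higher with a 95% counting interval that excluded equal levels. At 1.5-fold, with the same condition on the interval, these background shares were 2.16% and 2.02%, and at 2-fold 0.495% and 0.527%. Ratios are shPPIL1 over shControl after scaling the library sizes, and the members' ratios ran from 0.877 (PNN) to 1.08 (SAP18). Their median log2 ratio was -0.01, against 0.00 for all kept genes. Of the 10, 8 lay within the middle 50% of kept genes, which ran from -0.13 to 0.12. No background share or range given here was matched for read depth. The members had between 701 and 9107 reads in a library, while many kept genes had fewer. With equal counts of 100 the counting interval reaches 1.33-fold, and with 1000 it reaches 1.09-fold, so genes with few reads scatter more.

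A narrower reading uses the counting interval of each ratio. This exact 95% interval (Clopper-Pearson) covers the sampling of reads alone, and since PCR copies are not independent molecules it is too narrow even for that. It excluded equal levels for 3 lower members (PNN, RNPS1 and MAGOHB) and 2 higher members (SAP18 and ALYREF), and included them for 5. Among all kept genes it did so for 26.2% on the lower side and 24.9% on the higher side. The members' 3 and 2 of 10 lie near this background, which was not matched for read depth. Summed over the 10 genes, reads numbered 45883 in shControl and 46298 in shPPIL1, a ratio of 0.992 (0.979 to 1.01).

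**Figure D1:**
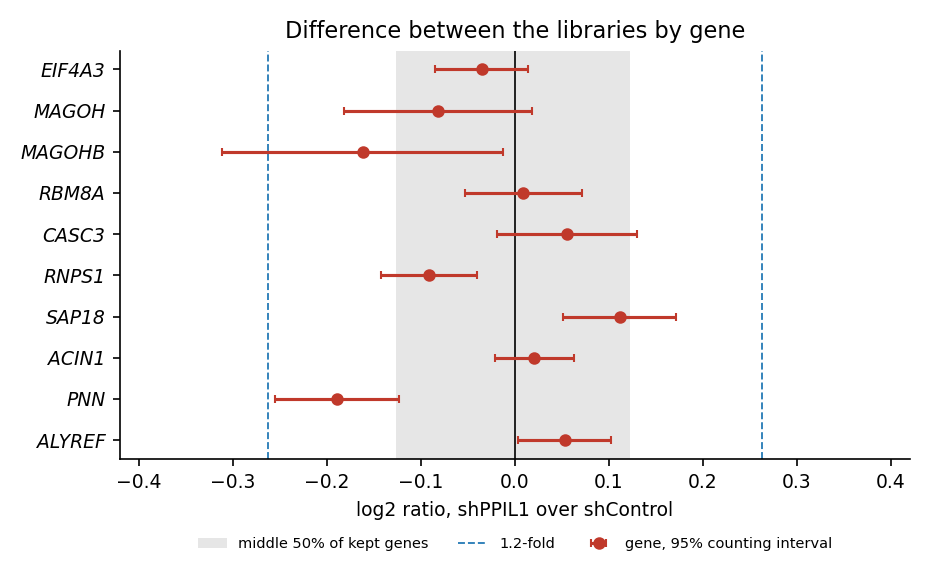
Log2 ratio of shPPIL1 over shControl (horizontal axis) for each exon junction complex gene, with its 95% counting interval, 1 library per group. Shading marks the middle 50% of kept genes (-0.13 to 0.12) and dashed lines mark 1.2-fold. All 10 points lie inside the dashed lines, and PNN (-0.19) and MAGOHB (-0.16) lie below the shaded range.

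In the core, EIF4A3 had 6654 reads in shControl and 6603 in shPPIL1, or 65.1 and 64.3 FPKM. The ratio was 0.976 (0.943 to 1.01), so the helicase that clamps the RNA stood at nearly the same level in both. RBM8A, the RNA-binding partner of MAGOH also known as Y14, had 4121 and 4217 reads, or 20.5 and 20.9 FPKM, with a ratio of 1.01 (0.964 to 1.05). CASC3 had 2839 and 3001 reads, or 20.5 and 21.6 FPKM, with a ratio of 1.04 (0.987 to 1.09). The intervals of all these core genes included equal levels.

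The paralogs of the helicase gave other values. EIF4A1 had 33855 reads in shControl and 29027 in shPPIL1, a ratio of 0.843 (0.830 to 0.856), lower by more than EIF4A3. EIF4A2 had 22971 and 23651 reads, with a ratio of 1.01 (0.994 to 1.03). Thus of the related helicases, EIF4A1 alone had an interval that excluded equal levels. All windows of the EIF4A1 transcript also occur in other gene models. These were AC016876.2 (140 of 166), the read-through gene SENP3-EIF4A1 (137 of 166) and EIF4A1 pseudogenes (at most 8 each). AC016876.2 and SENP3-EIF4A1 overlap EIF4A1 on the same strand and have no row in the count table. How reads shared with any of these models were counted is not given in the sources used here.

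MAGOH, a partner of RBM8A, had 1659 reads in shControl and 1594 in shPPIL1, or 61.7 and 59.0 FPKM, with a ratio of 0.945 (0.881 to 1.01). MAGOHB, which encodes nearly the same protein, had 771 and 701 reads, or 8.01 and 7.26 FPKM, with a ratio of 0.894 (0.806 to 0.992). The fewest reads of all 10 genes therefore lay behind the MAGOHB value, and its interval was the widest. With library totals alone in place of the scaled sizes the MAGOHB log2 ratio went from -0.16 to -0.14 and its interval included equal levels.

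Both paralogs can supply the same place in the complex, so they were also summed. The sum was 2430 reads in shControl and 2295 in shPPIL1, a ratio of 0.929 (0.877 to 0.984). MAGOHB gave 31.7% of the sum in shControl (exact binomial interval 29.9 to 33.6%) and 30.5% in shPPIL1 (28.7 to 32.5%). The intervals overlap, and this share needs no scaling between libraries. Per length, by the deposited FPKM values, MAGOHB gave 11.5% and 10.9%, because the length behind its FPKM (2347 bases) was larger than that of MAGOH (656 bases). Per coding length, which is nearly equal in both, it gave 31.4% and 30.3%.

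Among the partners, PNN differed by the most of the 10 genes. It encodes pinin, the scaffold of PSAP. PNN had 3937 reads in shControl and 3511 in shPPIL1, or 27.1 and 24.1 FPKM. Its ratio was 0.877 (0.838 to 0.918), a 1.14-fold lower level, and 17.1% of kept genes had a lower ratio still.

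ACIN1, the scaffold of ASAP in the same position, had 8827 reads in shControl and 9107 in shPPIL1, or 50.6 and 52.0 FPKM. Its ratio was 1.01 (0.985 to 1.04), and the interval included equal levels. The reads of these alternative scaffolds were set against each other within each library, a comparison chosen after their values were seen. PNN gave 30.8% of the PNN and ACIN1 reads in shControl (30.04 to 31.7%) and 27.8% in shPPIL1 (27.0 to 28.6%). These intervals do not overlap, but with 1 culture each, culture-to-culture variation in this share is unknown.

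The subunits that ASAP and PSAP have in common differed in opposite directions. RNPS1, an RNA-binding splicing coactivator, had 6358 reads in shControl and 6070 in shPPIL1, or 68.0 and 64.7 FPKM, with a ratio of 0.939 (0.906 to 0.973). SAP18, a small protein first known from a histone deacetylase complex, had 4263 and 4684 reads, or 40.2 and 44.0 FPKM, with a ratio of 1.08 (1.04 to 1.13). SAP18 was the highest of the 10 ratios. ALYREF, the export adaptor, had 6454 and 6810 reads, or 136 and 143 FPKM, with a ratio of 1.04 (1.003 to 1.07) whose lower bound lay just above equal levels.

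**Figure D2:**
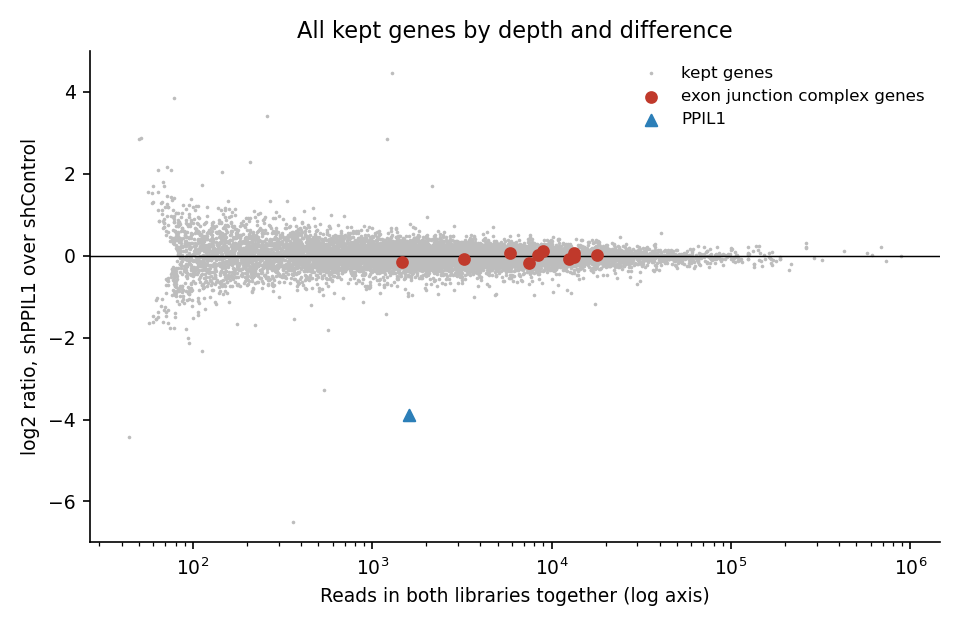
Log2 ratio of shPPIL1 over shControl (vertical axis) against reads in both libraries together (horizontal log axis) for the 12524 kept genes, with the 10 exon junction complex genes and PPIL1 marked. The complex genes lie in the dense band around 0 with between 701 and 9107 reads in a library, while PPIL1 lies at -3.88.

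Levels per length placed the genes in the same order in both libraries. ALYREF led, followed by RNPS1, EIF4A3, MAGOH, ACIN1, SAP18, PNN, CASC3, RBM8A and MAGOHB. Of the 10 genes, 9 were above the median kept gene by FPKM in shControl and 4 were in the top 10% (ALYREF, RNPS1, EIF4A3 and MAGOH). MAGOHB stood above 46.1% of kept genes. In shControl the exact Poisson intervals of neighbours overlapped for RNPS1 and EIF4A3, for EIF4A3 and MAGOH, and for CASC3 and RBM8A, so those neighbours are not ordered by these reads. In shPPIL1 the same held for RNPS1 and EIF4A3 and for CASC3 and RBM8A, while EIF4A3 and MAGOH were apart.

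**Figure D3:**
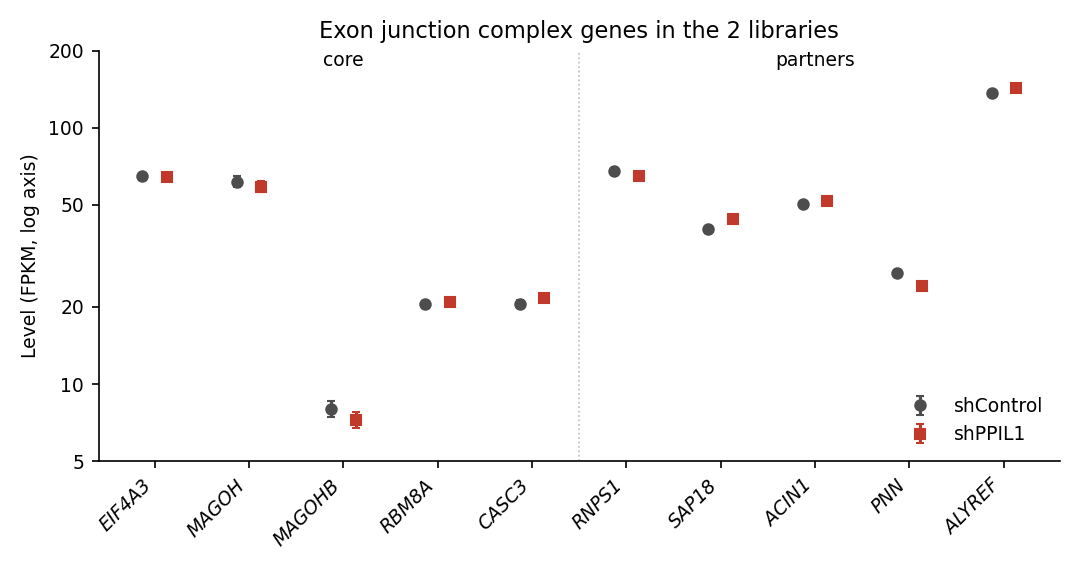
Deposited FPKM (vertical log axis) of each exon junction complex gene in shControl (circles) and shPPIL1 (squares), 1 library each, with exact 95% Poisson intervals for counting error. Levels run from 8.01 (MAGOHB) to 136 (ALYREF) in shControl and from 7.26 to 143 in shPPIL1, in the same order.

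The order by length depends on which transcript is taken, and most for RBM8A. Counts and FPKM values together give back the gene length the authors used, 4909 bases for RBM8A, close to the annotated RBM8A-204 transcript of 4961 bases. The shortest annotated transcript with at least 90% of the longest coding sequence, RBM8A-206, has 751 bases. With that length RBM8A would stand at 134 FPKM in shControl in place of 20.5, which is place 3 among the 10 rather than place 9. This is an upper limit, because reads from the longer transcript are then counted on the shorter. RNPS1 went from 68.0 to 142 in the same way and EIF4A3 from 65.1 to 109, while PNN stayed near its deposited value (27.1 and 26.8). Since both libraries use the same length, the choice cancels in every ratio between them.

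**Figure D4:**
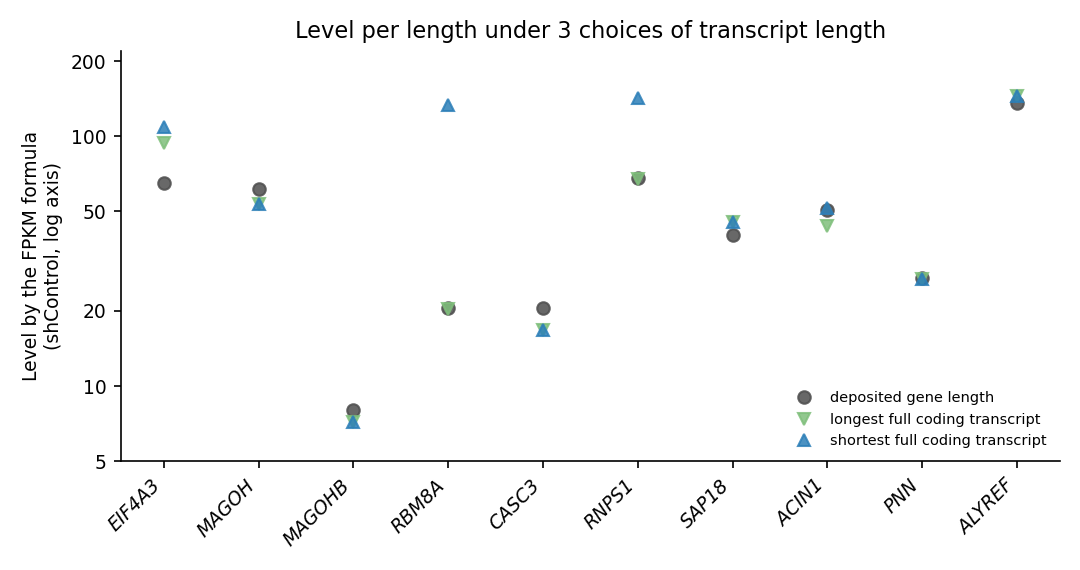
Level by the FPKM formula in shControl (vertical log axis) for each gene with the deposited gene length (circles), the longest (down triangles) and the shortest (up triangles) GENCODE transcript holding at least 90% of the longest coding sequence. RBM8A ranges from 20.3 to 134, while PNN and ALYREF change little.

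The members also differ in features that no expression value enters. Runs of arginine and serine are a hallmark of splicing factors, and the encoded RNPS1 protein held 27 RS or SR dipeptides in 305 residues (8.85 per 100). PNN held 29 in 717 residues (4.04 per 100) and ACIN1 50 in 1341 (3.73 per 100), against 0 in MAGOH and MAGOHB, 2 in SAP18 and 4 in EIF4A3. Between these, RBM8A held 5 in 174 (2.87 per 100), ALYREF 4 in 264 (1.52) and CASC3 9 in 703 (1.28). The genes richest in these dipeptides, RNPS1, PNN and ACIN1, had ratios of 0.939, 0.877 and 1.01. GENCODE annotates 10 retained-intron transcripts for ACIN1, 6 each for EIF4A3 and CASC3, and 5 with a nonsense-mediated decay label for MAGOHB. Counts per gene sum all of these forms, so they do not show whether splicing of the members differed.

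The wider pathway was read from lists of 52 further genes in 6 groups, of which 51 passed the filter. By the counting interval 19 (37.3%) were lower and 7 (13.7%) higher, against 26.2% and 24.9% of all kept genes, and 25 included equal levels. With an interval excluding equal levels, 3 were at least 1.2-fold lower and 0 at least 1.2-fold higher, against 9.41% and 8.40% of all kept genes. The median log2 ratio of the 51 genes was -0.04, and no group was tested against the background. ZC3H11A, a zinc finger protein of TREX, was listed at 0 reads in both libraries. The annotation and counter are not named in the sources used here, so this row does not show whether Huh7 cells express the gene.

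TREX loads export factors onto spliced messenger RNA, and ALYREF is its adaptor. Of 12 kept TREX genes, 5 were higher by the interval, 2 lower and 5 neither (all kept genes: 24.9% higher, 26.2% lower), with a median log2 ratio of 0.05. SARNP, a binding partner of the TREX helicases, had 3452 reads in shControl and 4175 in shPPIL1, for a ratio of 1.19 (1.14 to 1.24). CHTOP, which works with ALYREF in TREX, had 3067 and 3499 reads, and its ratio was 1.12 (1.07 to 1.18). The core subunits THOC3 and THOC5 were on the lower side, THOC3 with 3554 and 3071 reads (ratio 0.850, 0.809 to 0.892) and THOC5 with 9373 and 9222 (0.967, 0.940 to 0.996).

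Downstream of TREX, 8 of 19 export receptor and nuclear pore genes were lower by the interval, 2 higher and 9 neither (all kept genes: 26.2% lower, 24.9% higher), with a median of -0.04. Of the 19, 13 (68.4%) lay within 1.1-fold, against 53.9% of all kept genes, a background not matched for read depth. The subunits of the export receptor itself went opposite ways. NXF1, which carries messenger RNA through the pore, had 2443 reads in shControl and 2798 in shPPIL1, a ratio of 1.13 (1.07 to 1.19), and its cofactor NXT1 had 665 and 534 reads, with a ratio of 0.790 (0.703 to 0.886). SEM1, a subunit of TREX-2 that is also in the proteasome, had a ratio of 1.13 (1.08 to 1.19), and the pore protein NUP98 had 0.926 (0.901 to 0.952).

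Other factors place the complex on RNA and use it afterwards. Of 5 assembly and removal genes, 2 were lower by the interval and 0 higher (all kept genes: 26.2% lower, 24.9% higher), with a median of -0.08. CWC22, which brings EIF4A3 to the spliceosome, had 2260 reads in shControl and 1917 in shPPIL1, a ratio of 0.834 (0.784 to 0.887), and SRRM2, a large scaffold of the spliceosome, had 0.934 (0.914 to 0.954). The 8 genes of nonsense-mediated decay that contact the complex or act with it had 3 lower by the interval, 0 higher and 5 neither, beside the same background shares, with a median of -0.04. SMG5, which recruits decay enzymes, had 7825 and 6210 reads, with a ratio of 0.780 (0.755 to 0.807), and UPF1, the central helicase of that pathway, had 0.894 (0.863 to 0.925).

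The remaining groups are small. All 3 SR export adaptors were lower by the interval, as were 26.2% of all kept genes, with a median of -0.16. SRSF7 had 6432 reads in shControl and 5102 in shPPIL1, a ratio of 0.780 (0.752 to 0.809), and SRSF1 had 16587 and 15116, a ratio of 0.896 (0.877 to 0.916). Of 4 cap-binding genes, 1 was lower by the interval and 0 higher, beside the same background shares, with a median of -0.03. It was NCBP2, the subunit that holds the cap, with 2927 and 2537 reads and a ratio of 0.852 (0.808 to 0.899).

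**Figure D5:**
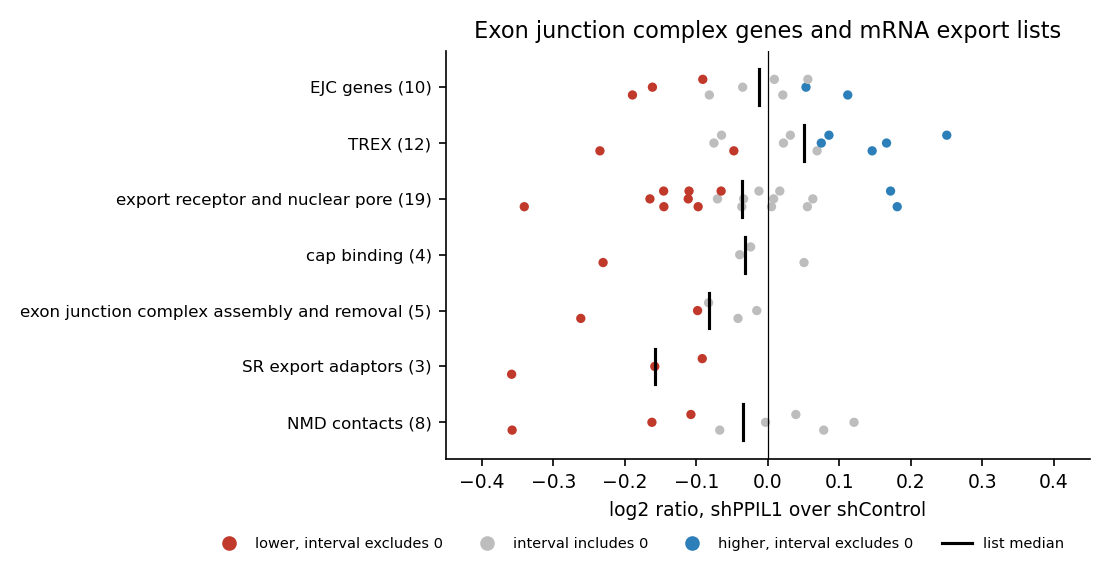
Log2 ratio of shPPIL1 over shControl (horizontal axis) for each kept gene of the exon junction complex (EJC, 10 genes) and of 6 mRNA export and partner lists, with each list's median as a bar. Colours give the side of the counting interval. List medians run from -0.16 (SR export adaptors, 3 genes) to 0.05 (TREX, 12 genes), and that of the EJC genes is -0.01.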

How the data were processed

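Messenger RNA of 2 Huh7 libraries was analysed. The files the authors deposited hold unnormalised whole-number counts for each gene and, in 1 file per library, FPKM values. Per the submitters' processing notes the genome build was hg38. The sources used here do not name the aligner, counter, annotation or strand setting. A further 7 count columns match no sample label and were not used. Columns were tied to samples through the column names in the labels.

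Library sizes were scaled by TMM factors (edgeR 4.0.16, R 4.3.3), 0.993 for shControl and 1.01 for shPPIL1. Ratios carry exact 95% intervals (SciPy 1.17.1); a library at 0 would take a floor of 3 counts, which 0 kept genes needed. With equal counts of 1000 the interval reaches 1.09-fold. Intervals and floors cover counting error only. The steps were tested on simulated data drawn with Poisson counting error only. Such data hold no PCR copies or variation between cultures, so this checked the calculation and not the intervals' fit to real libraries. Gene models, transcripts and sequences came from GENCODE 29, and alignments from Biopython 1.88. The text names PPIL1, all 10 members, EIF4A1 and EIF4A2, and from each list up to 2 higher and 2 lower genes by the interval bound nearest to equal levels. Genes at 0 reads, overlapping genes and cell type markers are named beside these. Members and lists were chosen with earlier results of these data known. Alternatives were other scalings (DESeq2 1.42.0 size factors, library totals), FPKM, other filters, means and, after the data were seen, other transcript lengths.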

Additional observations from a re-analysis of the deposited data

How the results depend on the processing

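The results were recomputed under 144 combinations of result and alternative. Of these 139 stayed within counting error or within 1.5 times the count, and 0 changed the sign of a member whose interval excluded equal levels. For a median, the limit was the median reach of its single genes' intervals to either side. That is looser than the counting error of a median over several genes. Part of this tally could not move. The 15 combinations without a count filter and the 15 at 5 CPM repeated the main values. The filters removed no further gene used in them, and the scaling factors of the main filter were kept. The 25 with the ratio of the FPKM values repeated the 25 with library totals, since the gene length cancels. No member reached 1.2-fold under any scaling tried. The scalings moved the median of all kept genes by at most 0.02 log2, so they tested this little. Because the TMM factors were not recomputed under the other filters, those filters could not change the ratio of a member here. The members' median log2 ratio ran from -0.03 (as a mean) to 0.01 (MAGOH and MAGOHB summed), so its sign is not set by these data. With library totals in place of TMM factors the median of all kept genes rose by 0.02, and the interval then included equal levels for MAGOHB and excluded them for CASC3 (log2 0.07), leaving 2 lower and 3 higher members. As a mean, the SR export adaptor list stood at -0.20. The MAGOHB share of its paralog pair was 11.5% (shControl) and 10.9% (shPPIL1) by FPKM, and 11.8% and 11.2% per length of the shortest full coding transcript, while per coding length, which is nearly equal in both genes, it was 31.4% and 30.3%. Both length alternatives were chosen after seeing the data, and the share per length thus follows the length taken for each gene. No paired analysis was possible because each group holds 1 library, and for the same reason no replicate could be left out. For genes with few reads, such as NXT1 or MAGOHB, depth limits how small a difference can be seen, and the variation between cultures was not measured.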

Other observations

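A 6-base motif, GATCAT, that earlier results of these data had singled out was looked up on the sense strand of the longest coding transcript of each gene. It stood in the 3' UTR or coding sequence of 4 of the 10 exon junction complex genes, against 46.5% of the 12086 kept genes with a gene model. MAGOHB and RBM8A carried it in the 3' UTR, and EIF4A3 and ACIN1 in the coding sequence. Their ratios were 0.894, 1.01, 0.976 and 1.01. PNN, the lowest of the 10, carried it in neither part. A match is a description of these letters and its part in any ratio was not tested.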
